A study of Mus musculus with 6 samples.

Results

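The genes described here encode the angiopoietin ligands Angpt1 and Angpt2, the receptors Tek (also called Tie2) and Tie1, and Ptprb, the vascular endothelial protein tyrosine phosphatase. They were taken from the deposited read-count table by gene symbol, and all 5 were found among its 18422 genes. The table covers poly(A) RNA of ear skin from 6 mice at postnatal day 21. The 3 ecko mice carried an endothelial-specific deletion of Vegfr2, whose official symbol is Kdr and which encodes the main receptor for VEGF-A on endothelial cells. The 3 control mice were littermates with the genotype label Control, and mice of both groups had received tamoxifen, the drug that switches on the deletion. The Cre line, the strain and the tamoxifen schedule of these mice are not given in the sources used here, and no label links a library to a numbered animal, so p-values measure the spread between these samples.

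Angiopoietins act on the endothelium through the Tie receptors. ANGPT1, made largely by mural and other perivascular cells, activates TEK and favours quiescent, tightly joined vessels. ANGPT2, made and stored by endothelial cells, competes with it and can block or activate TEK depending on the context. TIE1 has no firmly established ligand of its own among the angiopoietins and modulates TEK as a partner, while PTPRB removes phosphate from TEK and from VE-cadherin complexes. In the mouse, Tie1 and Angpt2 are also required for lymphatic vessel development.

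Libraries held between 17255416 and 18054696 estimated reads each, and the 5 genes had from 116 to 1144 reads per library. Kdr, the targeted gene, had 3.36, 2.05 and 2.35 CPM (reads scaled to a common library total) in the ecko libraries, against 27.4, 29.1 and 33.7 CPM in the controls, and its mean in ecko skin was 8.59% of the control mean. Keratins of the epidermis marked the tissue as skin, with Krt10 at 14477 ± 709 CPM in ecko skin and 13175 ± 346 CPM in controls (SD, n = 3 each). Reads of 4 Y-linked genes showed that the third library of each group came from a female pup and the other 4 from males. Of the 14866 genes with enough reads for testing, 1.76% changed between ecko and control skin, 1.08% fell and 0.686% rose (edgeR quasi-likelihood fit, p under 0.05 after Benjamini-Hochberg adjustment over all these genes). In 10.8% of tested genes every ecko library lay below every control, and in 10.2% every ecko library lay above.

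The receptors Tie1 and Tek and the ligand Angpt2 fell in ecko skin, Ptprb lay just outside the threshold with lower values, and Angpt1 showed no detectable difference. Thus 3 of the 5 genes fell, against 1.08% of all genes tested, and in 4 of the 5 every ecko library lay below every control, against 10.8%. The 5 genes were chosen with earlier results of these data known. With a library left out, 1 of the 5 passed without control 2, ecko 1, ecko 2 or ecko 3, 2 without control 1 and 4 without control 3; DESeq2 called 4. In the 4 male libraries alone, a choice made after the data were seen, 2 passed, as did 8 of the endothelial, 1 of the mural and 4 of the lymphatic genes listed further on. Calls over the whole table also moved with the setting. Lower genes numbered 160 with all libraries and 34 to 242 with 1 left out. They numbered 231 with DESeq2 and 91 in males alone. The median log2 fold change of the 5 was -0.56, against -0.0018 over all genes tested. In whole tissue, fewer cells of a type and less RNA per cell cannot be told apart.

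**Figure D1:**
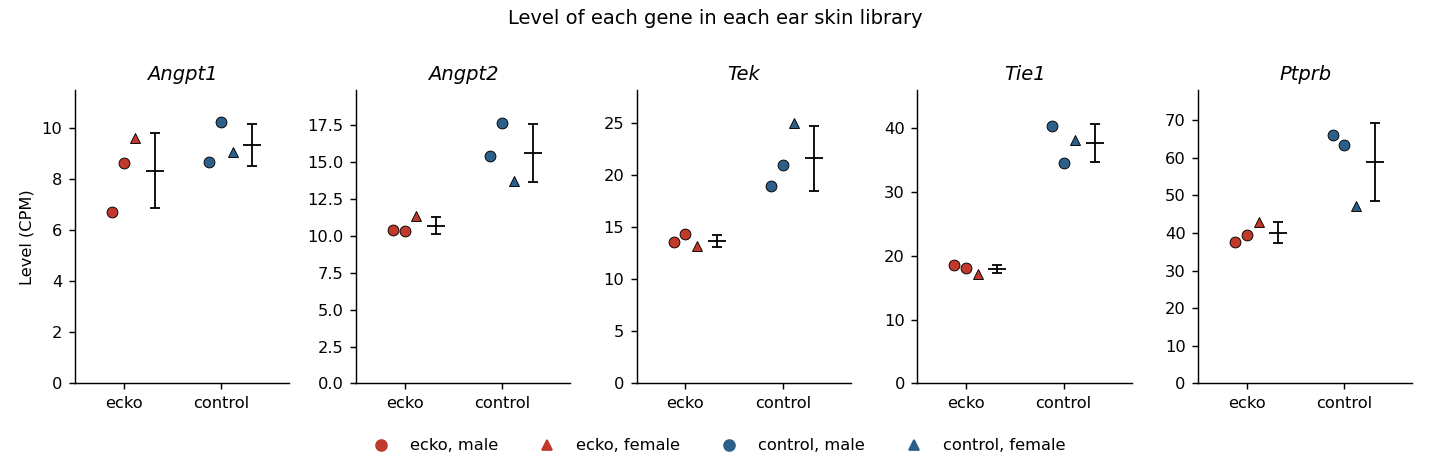
Level of each gene in CPM (linear axis from 0) in the 3 ecko libraries (red) and the 3 control libraries (blue), with circles for male and triangles for female pups; the bar and whiskers give mean and SD. Tie1 lay at 17.2 to 18.5 CPM in ecko skin, well below the 34.5 to 40.3 CPM of controls, whereas the Angpt1 groups overlapped.

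Tie1, the partner receptor of TEK (Entrez 21846, minus strand of chromosome 4, 118471191 to 118490061 in GRCm38), had the deepest fall. Its level was 18.5, 18.0 and 17.2 CPM in the ecko libraries, against 40.3, 34.5 and 38.1 CPM in the controls. The highest ecko library was far below the lowest control, and the ecko libraries differed little among themselves. The means were 17.9 ± 0.640 CPM in ecko skin and 37.6 ± 2.93 CPM in controls (SD, n = 3 each), which left 47.6% of the control mean. The log2 fold change was -1.07 (SE 0.08, 95% interval -1.25 to -0.89, edgeR adjusted p = 0.000454). Ordered by p, Tie1 stood at place 6 of the 14866 genes, and its call was kept in all 17 alternative settings run.

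Tek, the angiopoietin receptor (Entrez 21687, plus strand of chromosome 4, 94739289 to 94874976), also fell, by less. It had 13.6, 14.3 and 13.2 CPM in the ecko libraries, against 18.9, 20.9 and 25.0 CPM in the controls. The groups did not overlap, and the widest spread was among controls, where the female library was the highest. Tek averaged 13.7 ± 0.581 CPM in ecko skin and 21.6 ± 3.09 CPM in controls (SD, n = 3 each), or 63.3% of the control mean, with a log2 fold change of -0.66 (SE 0.11, 95% interval -0.91 to -0.40, edgeR adjusted p = 0.0241). The call was lost without control 2 (edgeR adjusted p = 0.0623), without ecko 1 (0.106), without ecko 2 (0.0862) and without ecko 3 (0.0940), while the log2 fold change stayed between -0.74 and -0.54 when any 1 library was left out. Over all alternative settings the adjusted p of Tek ran from 0.000380 to 0.106.

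Sequence upstream of both receptor genes is shown because, of the 5 genes, only these 2 were matched in the RefSeq promoter table (GRCm38.p6). Capitals mark matches to a SOX core (ACAAT or its reverse complement ATTGT) in Tek and to an ETS core (GGAAG or its reverse complement CTTCC) in Tie1, both motifs being cores bound by transcription factor families active in endothelium. The Tek stretch covers the 150 bases before the start site, at chr4:94739139-94739288 on the plus strand. The Tie1 stretches lie before its RefSeq start site on the minus strand, at chr4:118490062-118490099 (38 bases) and chr4:118489917-118489946 (30 bases). The Tie1 span given above, from GENCODE M21, ends at 118490061. The distal stretch lies outside that span, and the proximal stretch lies inside it.
Tek: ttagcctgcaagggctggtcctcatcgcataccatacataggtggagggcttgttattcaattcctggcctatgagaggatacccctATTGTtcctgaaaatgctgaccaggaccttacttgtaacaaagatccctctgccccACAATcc
Tie1, distal: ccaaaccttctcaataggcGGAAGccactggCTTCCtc
Tie1, proximal: ccccccCTTCCagagaCTTCCaggccacac

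In the 250 bases before the RefSeq start site, searched on both strands, Tie1 held 6 ETS cores and Tek held 0. Tek held 2 SOX cores and Tie1 held 0. Of the Tie1 cores, those at -231 and -219 lay outside the gene span given above, and the others lay inside it. An ETS core of these letters was present in 64.1% of all 32851 promoter windows of that length and a SOX core in 27.7%, so neither is a rare match. The FOX core GTAAACA (3.17% of windows), the hypoxia response core ACGTG (16.6%), the GATA motif AGATAA (9.99%) and the TATA box TATAAA (12.4%) were found in neither window. The matches did not overlap each other. They are matches of letters and do not show that a factor binds there.

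Angpt2, the context-dependent ligand (Entrez 11601, minus strand of chromosome 8, 18690263 to 18741562), had 10.4, 10.3 and 11.3 CPM in the ecko libraries, against 15.4, 17.6 and 13.7 CPM in the controls. All ecko libraries lay below all controls, and the female libraries of the groups were the closest. Angpt2 averaged 10.7 ± 0.589 CPM in ecko skin and 15.6 ± 1.97 CPM in controls (SD, n = 3 each), or 68.4% of the control mean, with a log2 fold change of -0.55 (SE 0.11, 95% interval -0.80 to -0.29, edgeR adjusted p = 0.0466). This call was narrow: it was lost without control 1 (edgeR adjusted p = 0.0969), control 2 (0.140), ecko 1 (0.176), ecko 2 (0.183) or ecko 3 (0.103) and kept without control 3 (0.0204). Over all settings the adjusted p ran from 0.0171 to 0.183, and the log2 fold change from -0.68 to -0.45. Angpt2 lies within the span of Mcph1, a gene on the opposite strand, and reads of the opposite strand could not be told apart here. The 2 genes share 0 exon bases in GENCODE M21, and Mcph1 averaged 11.5 CPM in ecko skin and 11.4 CPM in controls (n = 3 each), a log2 fold change of 0.0085 (SE 0.14).

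Ptprb, the phosphatase that acts on TEK (Entrez 19263, plus strand of chromosome 10, 116275523 to 116389535), had 37.6, 39.5 and 43.0 CPM in the ecko libraries, against 66.0, 63.5 and 47.0 CPM in the controls. The groups did not overlap, and the female control, at 47.0 CPM, lay nearer to the ecko libraries than to the male controls. Means were 40.0 ± 2.74 CPM in ecko skin and 58.8 ± 10.3 CPM in controls (SD, n = 3 each), or 68.0% of the control mean. The log2 fold change was -0.56 (SE 0.12, 95% interval -0.82 to -0.29), and with an edgeR adjusted p of 0.0528 it did not pass. Without control 3, the female control, the log2 fold change was -0.69 and the gene passed (edgeR adjusted p = 0.00302), within a range of 0.000891 to 0.197 over all settings. Its DESeq2 adjusted p was 0.000891.

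Angpt1, the activating ligand (Entrez 11600, minus strand of chromosome 15, 42424723 to 42676977), had 6.72, 8.63 and 9.62 CPM in the ecko libraries, against 8.66, 10.2 and 9.07 CPM in the controls. The groups overlapped, since the female ecko library lay above 2 of the 3 controls. The means of 8.32 ± 1.47 CPM in ecko skin and 9.33 ± 0.822 CPM in controls (SD, n = 3 each) differed by less than the spread of the ecko libraries. The log2 fold change was -0.16 (SE 0.14, edgeR adjusted p = 0.661), and its 95% interval, -0.48 to 0.16, holds falls nearly as deep as that of Angpt2. Exons of Angpt1 share 737 bases with Gm17473, an antisense RNA gene, so part of its reads cannot be assigned to a strand.

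To compare the genes with each other, CPM was divided by the length of all annotated exons (GENCODE M21). In controls Tie1 was the most abundant at 7.65 ± 0.596 CPM per kb (SD, n = 3), and its lowest library lay above the highest of every other gene. Tek (4.59 ± 0.656), Ptprb (4.41 ± 0.775) and Angpt2 (4.23 ± 0.533 CPM per kb) followed, and these 3 overlapped. Angpt1 was the lowest, at 1.79 ± 0.158 CPM per kb, below all libraries of the others. In ecko skin Tie1 had 3.64 ± 0.130 CPM per kb (SD, n = 3). Next came Ptprb, with libraries from 2.82 to 3.22, then Tek at 2.91 ± 0.123, Angpt2 at 2.89 ± 0.160 and Angpt1, with libraries from 1.29 to 1.85 CPM per kb (SD, n = 3 each), with Ptprb, Tek and Angpt2 again overlapping. Tie1 thus stayed on top, with its lowest ecko library at 3.50 CPM per kb, while the highest Ptprb library reached 3.22. When the longest transcript was used as the length instead, Ptprb, at 3.16 to 3.61 CPM per kb, lay above Tek, at 2.84 to 3.08, in every ecko library.

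**Figure D2:**
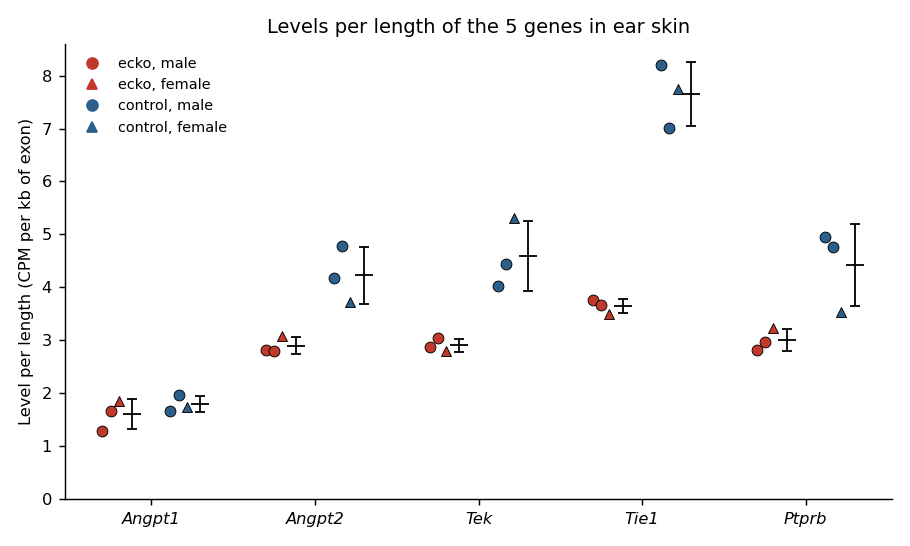
Level per length (CPM per kb of annotated exon, linear axis from 0) of the 5 genes in ecko libraries (red, left of each pair) and control libraries (blue); circles are male and triangles female pups, and bar and whiskers give mean and SD. Tie1 averaged 3.64 CPM per kb in ecko skin and 7.65 in controls, and the 3 other endothelial genes lay close together within each group.

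Other endothelial genes were lower in the same libraries. Of 16 general endothelial genes that leave out Kdr and the Tie receptors, all had values below 0, against 50.5% of all genes tested. Of the 16, 8 fell, against 1.08% of all genes tested, and 0 rose (edgeR adjusted p under 0.05). Their median log2 fold change was -0.51. These 16 were chosen with earlier results of these data known. Their summed level was 587 to 647 CPM in ecko libraries and 818 to 890 CPM in controls, and none was at 0. Without ecko 1 or ecko 2, 4 of them passed. Among those that fell were Cdh5 (-0.93, SE 0.07), the gene of VE-cadherin, Cd93 (-0.93, SE 0.08), an adhesion receptor gene, and Pecam1 (-0.52, SE 0.06), the gene of CD31. Tie1 had a lower log2 fold change than all 16, but Robo4, an endothelial receptor gene that also fell, was close (-0.996, SE 0.124). The interval of Robo4, -1.27 to -0.72, holds the -1.07 of Tie1, so Tie1 was not clearly apart from the lowest of the 16. Tek, Ptprb and Angpt2 stood within the range of the 16, with 6, 7 and 7 of the 16 below them. The share of this common shift in the values of the 5 genes was not tested beyond the ratios given below.

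**Figure D3:**
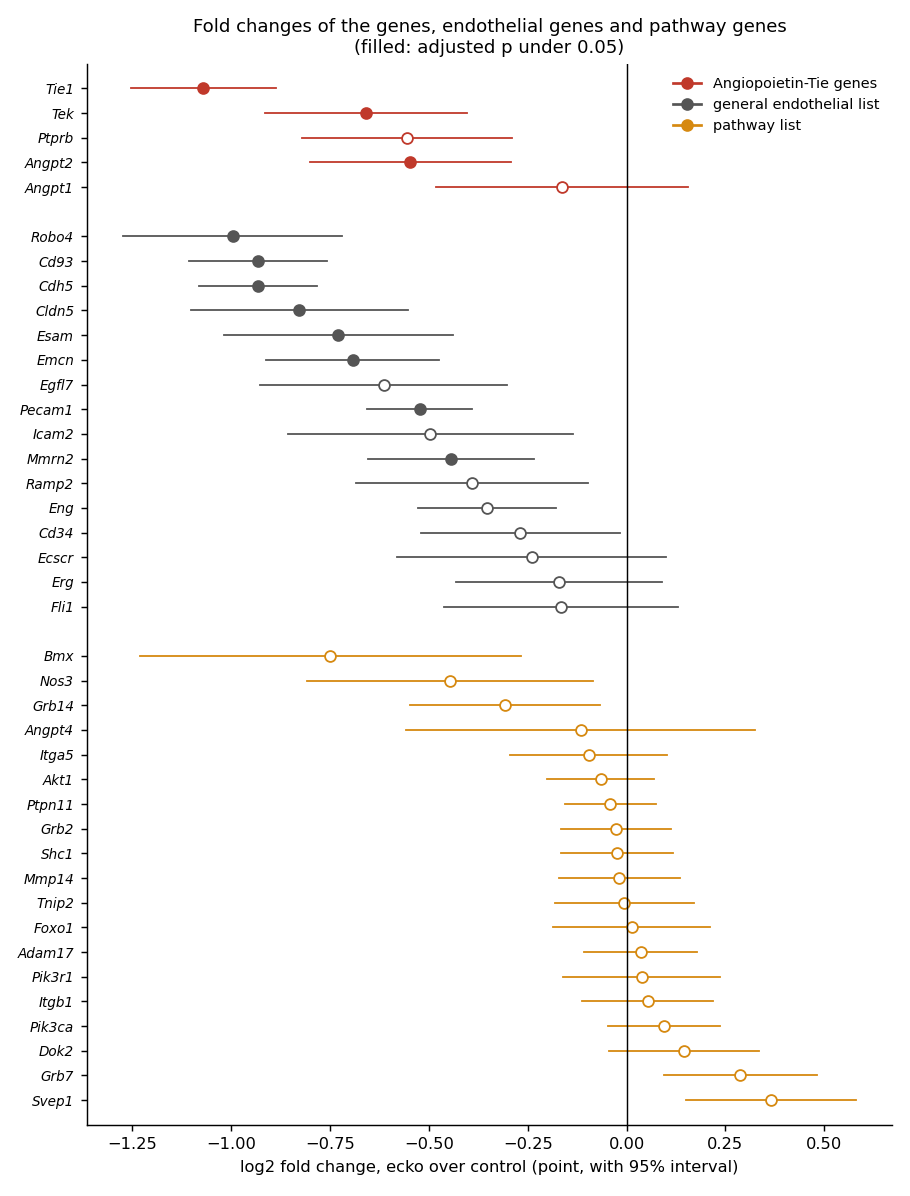
Log2 fold change of ecko over control with its 95% interval for the 5 genes (red), the 16 general endothelial genes (grey) and 19 other genes of the angiopoietin-Tie pathway (orange); filled points have an edgeR adjusted p under 0.05. The Tie1 point, at -1.07, lies left of the point of every endothelial gene, though within the interval of Robo4. Tek, Ptprb and Angpt2 lie among the endothelial genes, and the pathway genes scatter around 0.

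Ratios within each library asked whether the genes kept their proportions. The log2 ratio of Tie1 to Tek CPM was 0.44, 0.33 and 0.38 in the ecko libraries, against 1.08, 0.72 and 0.61 in the controls. All ecko ratios lay below all control ratios, by 0.42 on average (geometric means of 1.31 Tie1 reads per Tek read in ecko skin and 1.74 in controls). Tie1 over the mean log2 level of the 16 endothelial genes was -0.28, -0.28 and -0.40 in ecko libraries, against 0.26, 0.05 and 0.30 in controls, a difference of -0.52, again without overlap. With 3 libraries against 3, the two-sided exact permutation test cannot go below p = 0.1, which both ratios reached (adjusted p = 0.45 over the 9 ratios tested). The remaining 7 ratios overlapped between the groups. Among single genes, 21.0% of all those tested did not overlap either, counting both directions.

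Tek over the endothelial level differed by -0.11 (ecko -0.70 ± 0.087, control -0.60 ± 0.26; SD, n = 3 each; exact permutation p = 0.7). Ptprb over the endothelial level differed by -0.00062 (ecko 0.83 ± 0.085, control 0.83 ± 0.20; exact permutation p = 1), and Angpt2 by 0.0041 (ecko -1.06 ± 0.056, control -1.07 ± 0.13; exact permutation p = 0.9). In these genes the difference was within the spread of the controls, which does not show that the proportions were equal. Ptprb over Tek differed by 0.11 (exact permutation p = 0.9), and Angpt2 over Tek also by 0.11 (exact permutation p = 0.8).

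The balance of the ligands was read from Angpt2 over Angpt1. Its log2 ratio was 0.62, 0.25 and 0.24 in the ecko libraries, against 0.82, 0.78 and 0.59 in the controls. Ecko 1 lay above the lowest control, so the groups overlapped (difference -0.36, exact permutation p = 0.2, adjusted p = 0.6). Angpt1 was also set against genes of mural cells, one of its known sources. Of 12 mural genes 4 fell and 0 rose, with a median log2 fold change of -0.37, among them Vtn (-0.95, SE 0.14), the gene of vitronectin, a matrix protein that pericytes express, and Rgs5 (-0.82, SE 0.11), a pericyte regulator of G-protein signalling. Without ecko 2, 1 of the 12 passed, and 2 passed without control 2 or ecko 1 and 7 without control 3. The summed mural level was 860 to 907 CPM in ecko libraries and 1077 to 1184 CPM in controls, with none of the genes at 0. Angpt1 over the mean mural level differed by 0.21 (ecko -2.50 ± 0.27, control -2.72 ± 0.10; SD, n = 3 each; exact permutation p = 0.3). The difference was 0.093 without ecko 3 and 0.36 without ecko 1.

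**Figure D4:**
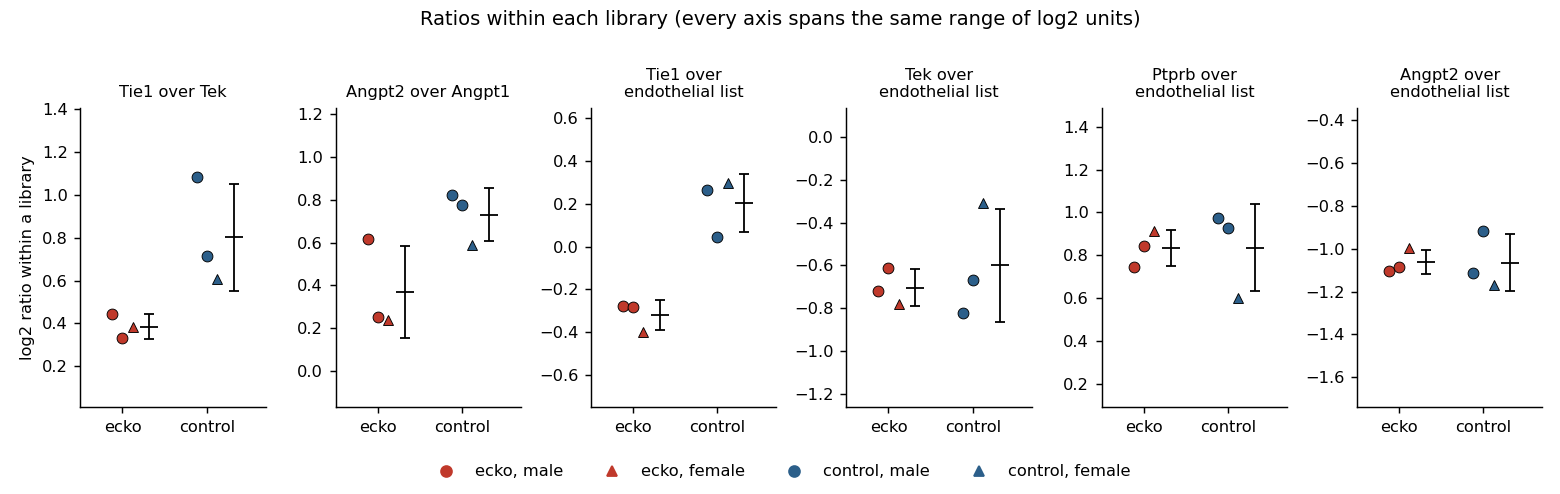
Log2 ratios within each library for ecko (red, left) and control (blue, right); circles are male and triangles female pups, bar and whiskers give mean and SD, and every vertical axis spans the same number of log2 units. The ratios of Tie1 to Tek and of Tie1 to the endothelial list separate the groups, with differences of -0.42 and -0.52, while the other 4 overlap.

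Lymphatic endothelium also expresses Tie receptors. Of 9 lymphatic genes 4 fell, against 1.08% of all genes tested, and 0 rose. The 4 include Prox1 (-0.95, SE 0.13), the factor gene of lymphatic identity, and Flt4 (-0.67, SE 0.08), the gene of VEGFR3. Not all 9 were lower: 7 had values below 0 and 2 had values above 0. Without ecko 2, 1 of the 9 passed, and 2 without ecko 1 or ecko 3. Their summed level was 293 to 314 CPM in ecko libraries and 362 to 457 CPM in controls, with none at 0. Some macrophages express Tek in the mouse. Of 8 macrophage genes all had values above 0 and 0 passed (edgeR; 1 had an unadjusted p under 0.05, and DESeq2 called 0), and their summed level of 813 to 838 CPM in ecko libraries overlapped the 498 to 821 CPM of controls. Of 8 fat cell genes Adipoq (-0.63, SE 0.12), the adiponectin gene, Cfd (-1.47), the adipsin gene, Fabp4 and Car3 fell. All 8 fat cell genes had values below 0, with a median log2 fold change of -0.63. DESeq2 called 7, and 1 passed without control 2 or ecko 1 and 2 without control 1, ecko 2 or ecko 3. Of 8 skeletal muscle genes Ryr1, a calcium release channel gene, and Tcap, a sarcomere gene, fell. All 8 muscle genes had values below 0, with a median log2 fold change of -0.47. In this list 1 gene passed when any ecko library was left out and 4 without control 3. Of 8 keratinocyte genes Krt1 rose, the keratin partner of Krt10 (0.76, SE 0.15), and it did not pass without control 1, control 2 or any ecko library. DESeq2 called 2, Krt1 and Trp63. With edgeR Trp63 (0.32, SE 0.08, edgeR adjusted p = 0.115) passed only without control 1. Of 8 fibroblast, 6 Schwann cell and 5 red cell genes 0 passed (edgeR; 0, 1 and 2 had an unadjusted p under 0.05, and DESeq2 called 0, 1 and 0). Without control 3, the Schwann cell gene S100b and the globin genes Hba-a1 and Hba-a2, near-identical copies whose reads cannot be split with certainty, fell. Hba-a2 lay just outside the threshold (-1.04, SE 0.22, edgeR adjusted p = 0.0528) and also passed without ecko 1, with upper-quartile factors, library totals only, no filter or a sex term, and at the threshold of 0.1. The part of these cell types in the values of the 5 genes was not tested.

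Of 20 further genes of the angiopoietin-Tie pathway, 19 had enough reads and none passed (edgeR; 5 had an unadjusted p under 0.05, and DESeq2 called 1). Without control 3, 1 passed. Their median log2 fold change was -0.02, with 8 values above 0 and 11 below. In 4 of the 19 every ecko library lay above every control, against 10.2% of all genes tested. In another 4 every ecko library lay below, against 10.8%. Whole-skin RNA does not separate endothelial reads of these genes from those of other cells. Of the 19, the 4 with the smallest p were Svep1, Bmx, Grb7 and Grb14. Svep1, the gene of a large matrix protein known in mouse and zebrafish as a ligand of TIE1 in lymphatic vessels, had 109, 99.9 and 106 CPM in the ecko libraries, against 68.9, 83.9 and 91.9 CPM in the controls. Its ecko values all exceeded its controls, opposite in direction to Tie1, with a log2 fold change of 0.37 (SE 0.10, edgeR adjusted p = 0.111). Svep1 was the gene that DESeq2 called and that passed without control 3.

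Bmx, a cytoplasmic kinase gene of endocardium and arteries, had 1.16, 1.44 and 1.57 CPM in ecko skin, against 2.08, 2.62 and 2.32 CPM in controls (log2 fold change -0.75, SE 0.22, edgeR adjusted p = 0.141). Grb14 and Grb7, which encode adaptor proteins that bind phosphorylated TEK, had log2 fold changes of -0.31 (SE 0.11, edgeR adjusted p = 0.212) and 0.29 (SE 0.09, edgeR adjusted p = 0.155). Foxo1, the gene of the transcription factor that AKT holds back downstream of TEK and that activates Angpt2, had 88.9 ± 5.66 CPM in ecko skin and 88.1 ± 10.4 CPM in controls (SD, n = 3 each). For Akt1 the log2 fold change was -0.07 (SE 0.06). The sheddases Adam17 and Mmp14, which can cleave Tie receptor ectodomains, had 0.04 (SE 0.06) and -0.02 (SE 0.07).

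Relatives of the ligands and of the phosphatase gave no calls with all 6 libraries. Of 7 angiopoietin-like genes, whose products resemble angiopoietins but do not bind TEK, 5 had enough reads and none passed (edgeR; 2 had an unadjusted p under 0.05, and DESeq2 called 0). Angptl4, an inhibitor of lipoprotein lipase, had 51.0, 52.0 and 54.7 CPM in the ecko libraries, against 31.4, 42.7 and 20.2 CPM in the controls. All ecko libraries lay above all controls, and the controls spread widely (log2 fold change 0.74, SE 0.20, edgeR adjusted p = 0.121). Angptl4 passed without control 2. Of the 4 phosphatases in the same R3 class as PTPRB, Ptprj and Ptpro had enough reads. Ptprj, also known as DEP-1, had 50.8 ± 1.42 CPM in ecko skin and 43.6 ± 5.65 CPM in controls (SD over 3 libraries each), a log2 fold change of 0.22 with SE 0.09 (edgeR adjusted p = 0.278), and the value of Ptpro was 0.09 (SE 0.14). Neither passed (1 had an unadjusted p under 0.05, and DESeq2 called 0).

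The genes whose pattern over the 6 libraries was most like each of the 5 were found by the root mean square difference between mean-centred log2 CPM profiles, among 12020 other genes. For Tie1 they were Tspan13, a tetraspanin gene, Arhgef15, an endothelial gene, and Podxl, the gene of podocalyxin (0.08, 0.09 and 0.11 log2 units), and Tek stood at place 57. For Tek they were the mitochondrial carrier gene Slc25a35, Flt4 and Kcnj8, a potassium channel gene of pericytes (0.07, 0.09 and 0.09), with Tie1 at place 607. For Angpt2 the closest was Cd300lg, a capillary endothelial receptor gene (0.03), then Afap1l1 and Mmrn2, an endothelial matrix gene (0.06 and 0.07). The log2 fold changes of Tspan13, Arhgef15 and Podxl were -1.07 (SE 0.10), -1.07 (SE 0.10) and -0.87 (SE 0.06), against -1.07 for Tie1.

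Ptprb was most like Uchl1, a ubiquitin hydrolase gene, Pde2a, a cyclic nucleotide phosphodiesterase gene, and S1pr1, an endothelial sphingosine phosphate receptor gene (0.06, 0.07 and 0.09). Among the 5 genes, Angpt2 and Ptprb were the closest pair: Angpt2 stood at place 14 for Ptprb, and Ptprb at place 26 for Angpt2. Angpt1 was nearest to Col14a1, a fibril-associated collagen gene, Adam23 and Bbs1, a gene of a ciliary trafficking complex (0.05 each), and none of the other 4 stood closer to it than place 7686. These are descriptions of 6 libraries with 2 groups and carry no test.

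Within sexes, Tie1 had 18.3 CPM in male ecko libraries and 37.4 CPM in male controls (means of 2 and 2), and 17.2 CPM in the female ecko library and 38.1 CPM in the female control. Ptprb had 38.5 CPM in male ecko libraries and 64.8 CPM in male controls, and 43.0 CPM in the female ecko library and 47.0 CPM in the female control. For Tek the larger gap was in the females, at 13.2 CPM in ecko and 25.0 CPM in control, with 13.9 CPM in male ecko libraries and 19.9 CPM in male controls. Angpt2 had 10.3 CPM in male ecko libraries and 16.5 CPM in male controls, and 11.3 CPM in the female ecko library and 13.7 CPM in the female control. Angpt1 had 7.68 CPM in male ecko libraries and 9.45 CPM in male controls, and 9.62 CPM in the female ecko library and 9.07 CPM in the female control, the opposite order. With 1 female per group, sex and single animal cannot be told apart. The difference between the sexes did not pass for any of the 5 genes (edgeR interaction term). The lowest p was that of Ptprb, with a male minus female difference in log2 fold change of -0.62 (SE 0.12, edgeR adjusted p = 0.410, unadjusted p = 0.00127).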

How the data were processed

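RNA was extracted with Trizol from snap-frozen ear skin, and poly(A) RNA was captured, fragmented and copied from random primers, per the labels' protocols. The table deposited by the authors holds expected counts, which are estimates of reads for every gene, in 1 column per library, per the file headers; 10.5% of values were not whole. RSEM 1.3.1, HISAT2 2.2.1, Bowtie2 2.4.5 and the build GRCm38.p6 are listed in the submitters' processing notes, with no roles, and the annotation and strand setting are not given in the sources used here. No strand-marking step is described.

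Expected counts were rounded. Genes were filtered with filterByExpr (minimum count 10), which kept 14866 of 18422, and scaled by TMM. The main test was edgeR 4.0.16 (glmQLFit, glmQLFTest; R 4.3.3) on the 6 libraries with genotype alone as term and Benjamini-Hochberg adjustment over all genes tested; SE is the size of the log2 fold change over the square root of F. CPM used TMM-scaled totals, and log2 CPM a prior count of 2. Ratios were tested with exact permutation (scipy 1.17.1). Alternatives were other scalings and filters, DESeq2 1.42.0, limma-voom (limma 3.58.1), a sex term, a replicate block, leaving each library out and a threshold of 0.1; male libraries alone were added after the Y-linked genes (at least 500 reads for a male) were read. The edgeR step was also run on simulated data, which held no sex effect, and the outcome is not given here. Libraries of the same group were no duplicates of each other, since their counts differed by 4.89 to 14.8 times the sampling variance.

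The 5 genes and all gene lists were chosen with earlier results of these data known. The 5 genes and Kdr are named. Of the pathway and family lists, every gene that passed and up to 4 with the smallest p are named. Of each cell type list, up to 3 with the smallest p are named. The 3 genes most alike to each of the 5 are also named (mean of at least 5 CPM, provisional symbols left out). Krt10, Robo4, Foxo1, Akt1, Adam17, Mmp14, Mcph1 and Fabp4 were named after their values were seen. Positions and exon lengths came from GENCODE M21 (GRCm38), and all 5 Entrez numbers matched RefSeq. Figures were drawn with matplotlib 3.10.9.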

Additional observations from a re-analysis of the deposited data

How the results depend on the processing

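All 5 genes kept a negative log2 fold change in all 17 alternatives. Angpt1 stayed outside and Tie1 inside the threshold throughout, at -0.28 to -0.03 and -1.13 to -1.02 with any 1 library left out. Angpt2 did not pass with limma-voom, the replicate block or a sex term (-0.54 each) or in males alone (-0.68), and ran from -0.63 to -0.45 with 1 library left out. Tek did not pass in males alone (-0.52), with -0.74 to -0.54 on leaving 1 library out. Ptprb passed with upper-quartile factors (-0.57), DESeq2 (-0.55), no filter (-0.55), the threshold of 0.1 (-0.56) and males alone (-0.75), and ran from -0.69 to -0.46 with 1 library left out. The cause of these changes was not tested. Counts of higher genes, 102 in the fit reported, were 195 with DESeq2, 63 with the replicate block and 182 at the threshold of 0.1; lower genes, 160, numbered 269 at that threshold and 91 in males alone. Leaving out 1 library gave 22 to 165 higher and 34 to 242 lower genes.

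Of the 7 ratios that overlapped between groups, 5 changed sign in at least 1 setting. With 1 library left out, Ptprb over Tek ran from -0.16 to 0.29, Angpt2 over Tek from -0.087 to 0.22, and the ratios to the endothelial level from -0.22 to 0.040 for Tek, -0.12 to 0.070 for Ptprb and -0.046 to 0.079 for Angpt2, which was -0.083 against the summed list. Tie1 over Tek (-0.52 to -0.28) and Tie1 over the endothelial level (-0.60 to -0.48) kept their sign, as did Angpt2 over Angpt1 (-0.49 to -0.30) and Angpt1 over the mural level (0.093 to 0.36). Same-numbered libraries deviated together in 1 of 3 pairs (correlations 0.05, 0.05 and 0.17, the last between the female pups), so the numbers were not taken as pairs; ecko 1 correlated better with control 2 than with control 1. An exact sign-flip test of ratios over 3 pairs cannot go below p = 0.25. Another scaling moved the median of all genes by less than 0.1 log2 units. Angpt1 had the fewest reads of the 5 genes, 116 to 180 per library.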

Other observations

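The 4 genes with lower values were more uniform among ecko than among control libraries. This order was not particular to them. Over all genes tested, counts differed by 4.89 to 8.24 times the sampling variance between ecko libraries. Between control libraries they differed by 10.8 to 14.8 times. The coefficient of variation in ecko and control skin was 3.57% and 7.79% for Tie1, 4.24% and 14.3% for Tek, 5.52% and 12.6% for Angpt2 and 6.85% and 17.6% for Ptprb. Angpt1 had the opposite order, with 17.7% in ecko and 8.82% in control skin, and so had the deleted gene Kdr, with 26.6% in ecko and 10.9% in control skin. These values rest on 3 libraries per group, and the difference in spread was not tested. The female control combined the highest Tek level of all libraries (25.0 CPM) with the lowest control levels of Ptprb (47.0 CPM) and Angpt2 (13.7 CPM).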
